A study of Mus musculus with 9 samples.

Results

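Genes of the cell division cycle and of DNA replication were followed in microglia from mice with the R47H variant, the common variant or no human TREM2. The set holds 35 genes chosen by name, from the proliferation marker Mki67 to the kinetochore protein gene Cenpf, of 19938 mouse genes that a probe set with a single gene symbol represented on the array. Such a probe set was found for 33 of the 35, and where a gene had several, the one with the highest mean stood for it. A filter kept genes whose mean over the arrays reached the middle of the probe set means (5.31 on the log2 scale). It left 10795 genes to test, 21 of them from the set, and the 12 members below it are described without a call. Cdkn1a shared its probe set with another gene symbol, and the expression of Ccnb1 was not analysed here.

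The 9 Affymetrix Gene ST arrays each held RNA from CD45+ CD11b+ cells of 1 mouse, aged 8.5 months, that carried 5XFAD and lacked mouse TREM2. 5XFAD is a transgenic mouse model of Alzheimer's disease that forms amyloid plaques, with transgenes driven in neurons by a Thy1 promoter. The 3 genotypes had 3 mice each: R47H mice expressed human TREM2 with the R47H substitution, CV mice expressed its common variant, and KO mice had no human TREM2. Mouse 1 of each genotype was female and mice 2 and 3 were male. The labels do not name the promoter or construct of human TREM2, and all groups share the loss of mouse TREM2. The comparisons set each TREM2 variant against its absence and against the other variant.

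A dividing cell passes from G1 into S phase when cyclin D with Cdk4 and then cyclin E with Cdk2 release E2F transcription factors from the retinoblastoma proteins, and E2F turns on the genes that copy DNA. The helicase of Mcm2 to Mcm7 unwinds the DNA, and Pcna holds the polymerases on it. Later, cyclin A and cyclin B with Cdk1 drive mitosis, and their genes are repressed in resting cells by the DREAM complex through promoter elements named CHR. Microglia of the adult brain divide rarely and are long-lived. They proliferate around amyloid plaques, and TREM2 is known to act on their survival and expansion there.

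RefSeq promoter sequences (GRCm38.p6), running from 250 bases before to 50 bases after a gene's first listed start, were matched for 28 of the 35 genes. The CHR letters TTTGAA, on either strand, were in 12 of the 28 (42.9%), against 18.1% of 27025 promoters of the same length. An E2F pattern, TTTNNCGC on either strand, was in 6 of 28 (21.4%), against 5.27% of all promoters. The CCAAT box, CCAAT on either strand, was in 22 of 28 (78.6%), against 37.9% of all. By role, the E2F pattern was in 4 of 5 helicase genes (Mcm3, Mcm5, Mcm6 and Mcm7) and in Cdk1 and Tyms, while the fifth, Mcm2, held the CHR letters and no E2F match. The CHR letters were also in Mki67, Top2a and Hmgb2, in 3 of 4 matched genes among Ccnb1, Ccnb2, Cdc20 and Cdk1, in 3 of 5 genes of the mitotic kinases and checkpoint, and in Kif11 and Cenpf of 3 spindle and kinetochore genes. Neither was in the promoters of the G1 genes Ccne1, Cdk4 and Cdkn1a, where a lack of match says only that these letters are not in the window. A match is a description of the sequence and not a binding site. Of the 7 genes with no entry, Stmn1, Ccna2, Ccnd1, Mcm4, Aurkb, Kif20a and Tpx2, no promoter is shown.

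Promoters of 4 genes are printed, 5′ to 3′, because the genes stand for the replication side (Mcm6), for both sides (Cdk1) and for the proliferation markers (Mki67 and Top2a). Capitals mark the letters of the 3 patterns.
Mcm6, chr1:128359656-128359955, minus strand: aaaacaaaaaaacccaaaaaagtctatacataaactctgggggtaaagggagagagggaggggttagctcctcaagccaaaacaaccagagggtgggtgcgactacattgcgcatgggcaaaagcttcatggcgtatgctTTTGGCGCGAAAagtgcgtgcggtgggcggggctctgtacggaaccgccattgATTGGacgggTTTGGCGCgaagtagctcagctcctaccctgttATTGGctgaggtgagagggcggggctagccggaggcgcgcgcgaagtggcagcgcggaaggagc
Cdk1, chr10:69352863-69353162, minus strand: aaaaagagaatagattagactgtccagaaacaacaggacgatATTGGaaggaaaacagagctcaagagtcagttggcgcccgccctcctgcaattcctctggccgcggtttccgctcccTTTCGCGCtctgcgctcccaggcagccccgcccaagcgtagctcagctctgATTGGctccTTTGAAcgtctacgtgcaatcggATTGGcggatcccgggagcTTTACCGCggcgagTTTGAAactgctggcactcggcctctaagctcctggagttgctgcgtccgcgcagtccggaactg
Mki67, chr7:135716330-135716629, minus strand: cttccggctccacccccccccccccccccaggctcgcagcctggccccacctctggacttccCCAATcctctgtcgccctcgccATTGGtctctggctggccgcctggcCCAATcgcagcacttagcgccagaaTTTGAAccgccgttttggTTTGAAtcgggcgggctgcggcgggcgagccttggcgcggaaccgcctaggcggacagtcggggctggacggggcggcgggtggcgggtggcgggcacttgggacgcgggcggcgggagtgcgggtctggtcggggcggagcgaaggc
Top2a, chr11:99024140-99024439, minus strand: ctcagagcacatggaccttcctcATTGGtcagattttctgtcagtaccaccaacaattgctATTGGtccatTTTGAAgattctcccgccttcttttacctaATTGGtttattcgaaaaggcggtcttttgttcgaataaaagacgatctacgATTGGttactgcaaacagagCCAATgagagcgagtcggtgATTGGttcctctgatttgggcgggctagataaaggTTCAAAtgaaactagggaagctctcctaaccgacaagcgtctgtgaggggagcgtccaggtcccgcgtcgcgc
In Mcm6 the first capital run holds 2 overlapping E2F matches, which begin 110 and 106 bases before the start, and another begins 47 bases before it. Cdk1 holds 2 CHR matches, 71 and 15 bases before the start, and 2 E2F matches, 131 and 29 bases before it. Mki67 has 2 CHR matches and 3 CCAAT boxes, and Top2a 2 CHR matches and 6 CCAAT boxes.

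Each array gave a log2 value per probe set, with array medians from 5.28 to 5.35. Of 8 microglial markers 7 had a probe set (P2ry12, Tmem119, Cx3cr1, Csf1r, Aif1, Sall1 and Siglech) and all passed the filter, with a mean log2 value of 11.36 to 11.45 in R47H mice, 11.24 to 11.31 in CV mice and 11.41 to 11.50 in KO mice. Markers of other cells moved with genotype or mouse. The 8 oligodendrocyte markers with a probe set, all past the filter, had a mean of 7.26 to 7.64 in R47H mice, 6.03 to 6.43 in CV mice and 6.05 to 6.84 in KO mice. Neutrophil markers, of which 10 of 12 passed the filter and Cxcr2 and Ly6g did not, stood at 6.49 to 7.50 in R47H mice, 8.43 to 9.44 in CV mice, and 5.84, 6.24 and 9.35 in KO mice 1, 2 and 3. Of 8 genes of neutrophil precursors 6 lay below the filter, Elane, Mpo, Prtn3, Ctsg, Ms4a3 and Fcnb. The 8 averaged 4.52 to 4.71 in R47H mice, 5.13 to 5.15 in CV mice, and 4.49, 4.68 and 5.27 in KO mice 1, 2 and 3. The 2 tested, Chil3 and Cebpe, were positive in CV minus KO (2.18 and 0.21), with 0 called. All 6 neuronal markers lay below the filter.

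No cell cycle gene passed the test for a difference between genotypes. With R47H set against KO, 0 of the 21 tested members were called, beside 0.0834% of all tested genes (limma). A call was an adjusted p under 0.05, Benjamini-Hochberg over the 10795 genes. Of the 21, 5 (23.8%) had an unadjusted p under 0.05, beside 5.68% of all genes. With R47H set against CV, 0 of 21 were called, beside 0.797% of all genes, and 2 (9.52%) had an unadjusted p under 0.05, beside 12.4%. With CV set against KO, 0 of 21 were called, beside 1.21% of all genes, and 1 (4.76%) had an unadjusted p under 0.05, beside 13.2%. The F-test of any genotype difference called 0 of 21, beside 1.32% of all genes. In it 4 (19.0%: Stmn1, Mcm6, Tk1 and Ccna2) had an unadjusted p under 0.05, beside 12%. The smallest adjusted p of a member was 0.0966, for Stmn1 between R47H and CV (limma). Over 19 alternative settings of each comparison no member was called. In whole sorted populations, fewer dividing cells and less RNA per cell cannot be told apart.

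Most members lay slightly higher in R47H. With R47H set against KO, 28 of 33 members had a positive difference, beside 45% of all genes, and the median was 0.086 on the log2 scale, beside -0.012 for all genes. With R47H set against CV, 22 of 33 were positive, beside 52.0% of all genes, with a median of 0.095 beside 0.0047. With CV set against KO, 21 of 33 were positive, beside 41.8% of all genes, with a median of 0.058 beside -0.021. Each group enters a pair of these comparisons, so they share arrays. The R47H minus KO median was 0.034 without R47H mouse 3 and 0.18 without R47H mouse 1. The R47H minus CV median was 0.031 without R47H mouse 3 and 0.16 without CV mouse 1. The CV minus KO median changed sign, to -0.018, without CV mouse 1.

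All 3 R47H arrays lay above all 3 KO arrays for 5 of 33 members (15.2%: Stmn1, Mcm3, Mcm6, Rrm1 and Ccne1), beside 3.11% of all genes, and below them for 0, beside 3.61%. All 3 R47H arrays lay above all 3 CV arrays for 4 (12.1%: Stmn1, Mcm3, Mcm6 and Ccne1), beside 6.44%, and below them for 0, beside 4.82%. All 3 CV arrays lay above all 3 KO arrays for 2 (6.06%: Tk1 and Cenpf), beside 4.07%, and below them for 1 (3.03%: Bub1b), beside 6.2%.

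**Figure D1:**
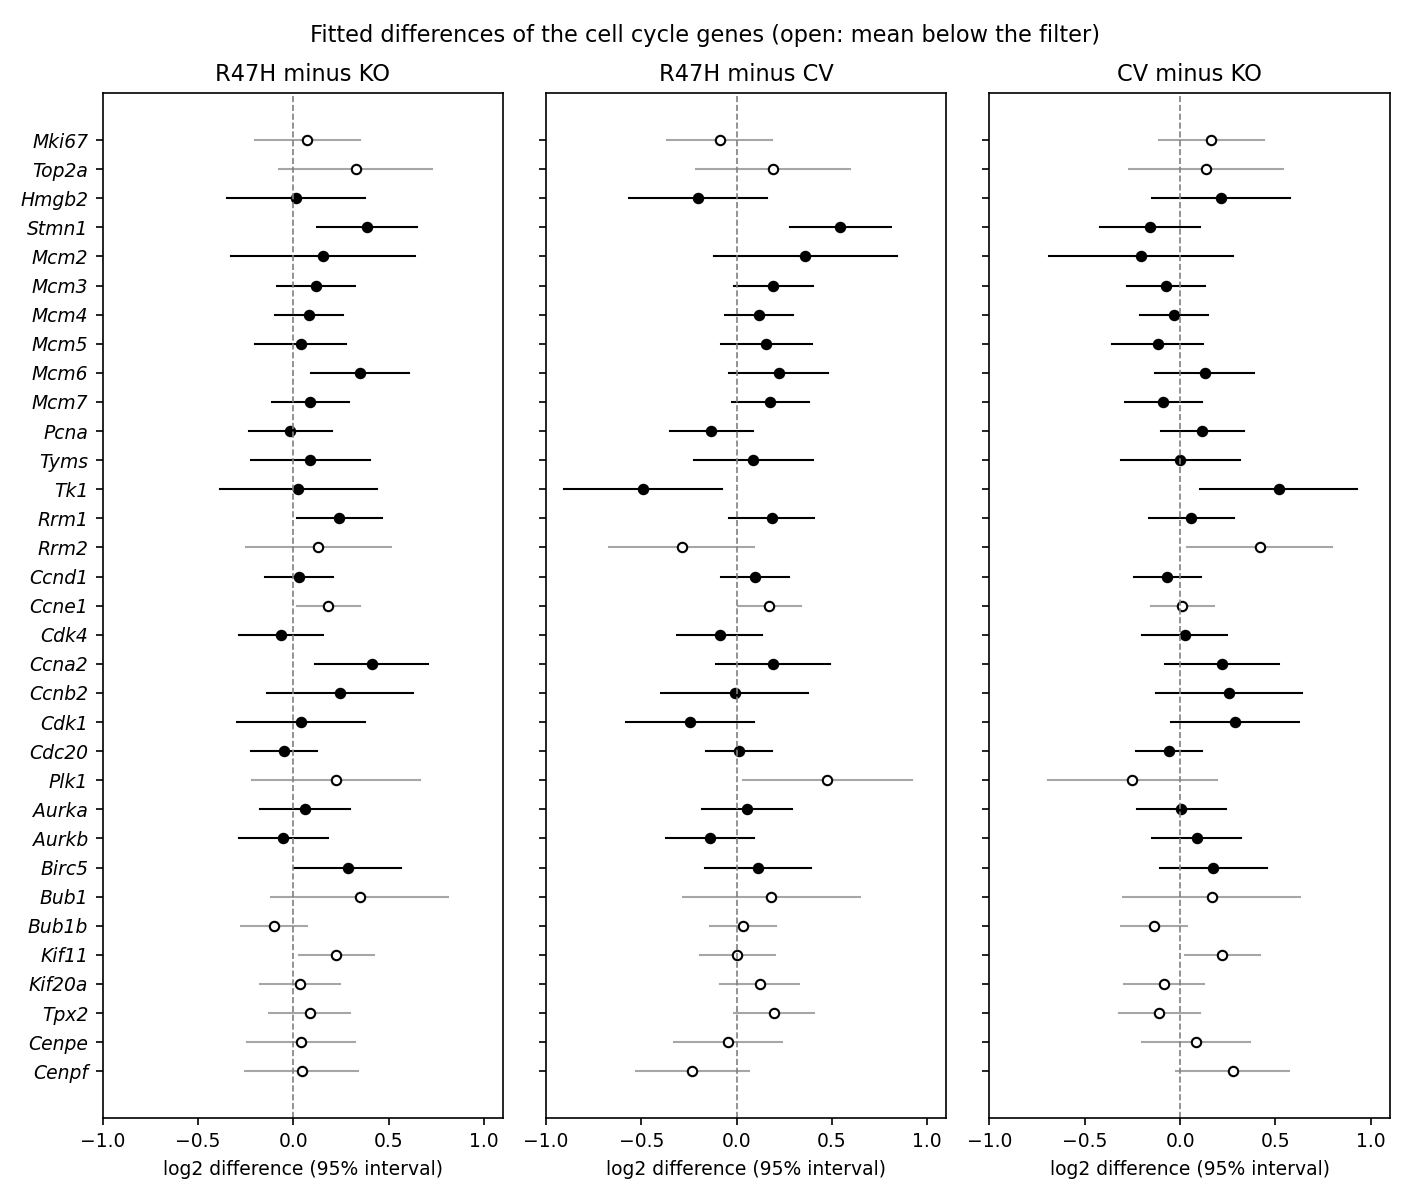
Fitted log2 differences of the 33 cell cycle genes with 95% intervals (limma), in 3 panels for R47H minus KO, R47H minus CV and CV minus KO. Filled points are the 21 tested genes and open points the 12 below the filter. Most intervals include 0, and Stmn1 stands furthest to the right in R47H minus CV at 0.54.

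Mice of 1 genotype also differed in these genes. R47H mouse 3 held the highest of the 9 values for 13 of 33 members (39.4%), beside 9.26% of all genes, and R47H mouse 2 for 8 (24.2%), beside 10.6%. R47H mouse 1, the female of that group, held the lowest value for 8 members (24.2%), beside 12.3% of all genes, and KO mouse 1, also female, for 7 (21.2%), beside 10.6%. The median deviation of the members from their 9-array means was -0.091, 0.076 and 0.19 in R47H mice 1, 2 and 3. It was -0.0085, -0.0072 and -0.016 in CV mice 1, 2 and 3, and -0.083, 0.0077 and -0.038 in KO mice 1, 2 and 3. The R47H mice spanned the whole range of these deviations, with the female at the low end and 30 of 33 members above their mean in mouse 3. KO mouse 3, a male, had 8 of 33 above their mean, as R47H mouse 1 did, and KO mouse 1 had 9.

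**Figure D2:**
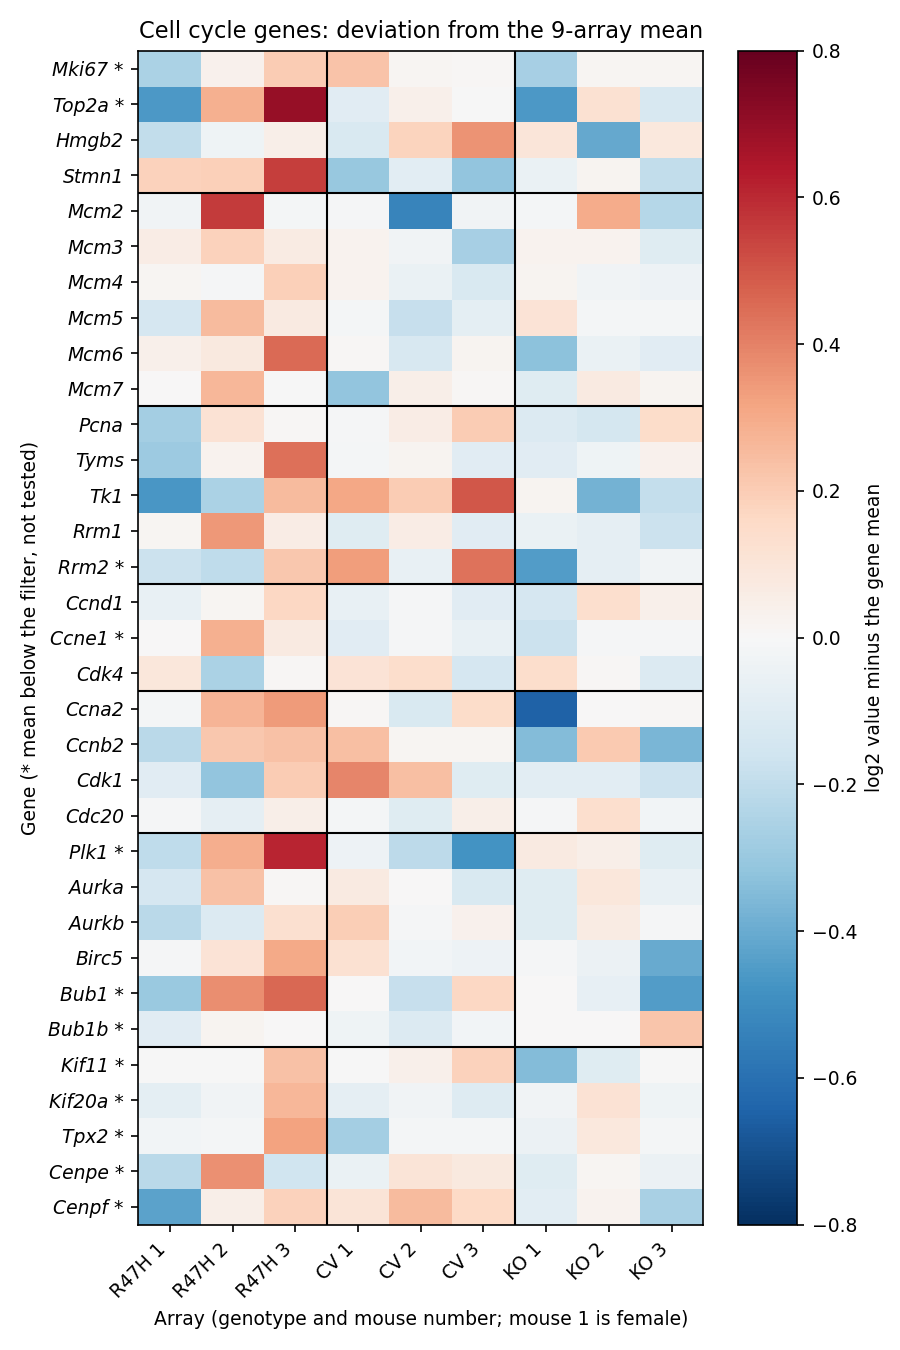
Deviation of each of 33 cell cycle genes (rows, grouped by role) from its mean over 9 arrays (columns: R47H, CV and KO mice), on a log2 colour scale. Members above their mean number 30 of 33 in R47H mouse 3, which is mostly red, but 8 in R47H mouse 1, 9 in KO mouse 1 and 8 in KO mouse 3. A star marks the 12 genes below the filter.

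**Figure D3:**
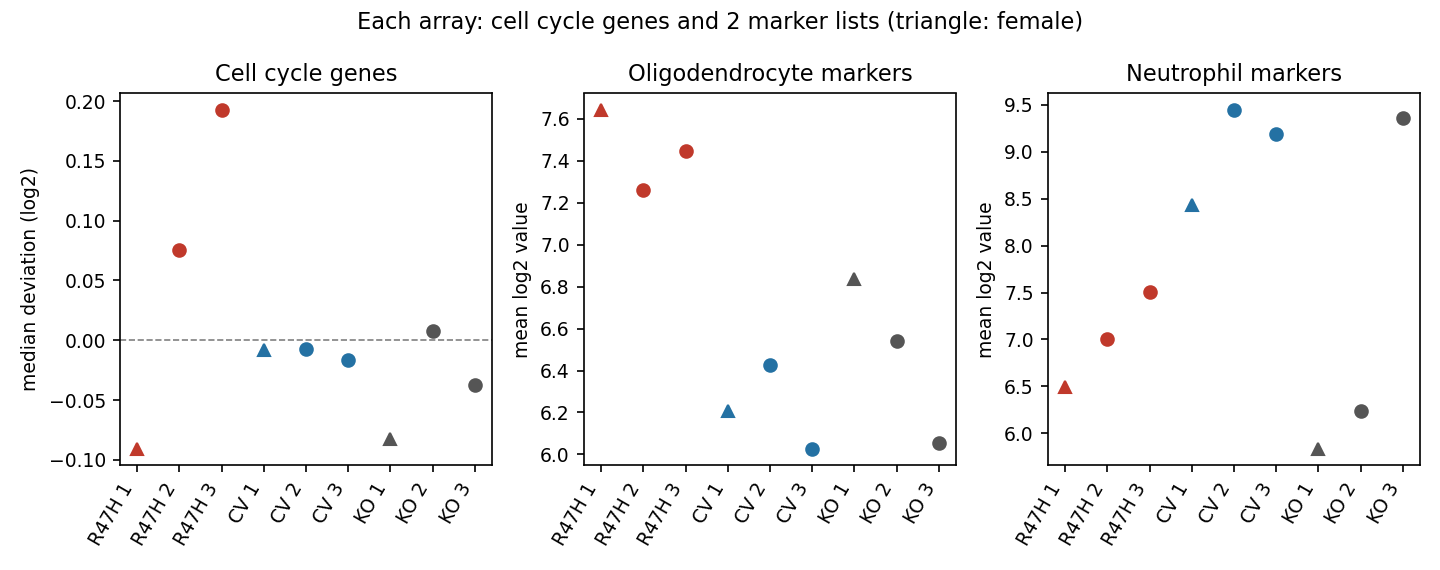
Per array, the median deviation of the 33 cell cycle genes (left), the mean log2 value of oligodendrocyte markers (middle) and that of neutrophil markers (right), with triangles for females. R47H mouse 3 is at the top on the left at 0.19, the R47H mice lie together on the middle panel, and KO mouse 3 lies among the CV mice on the right.

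The proliferation markers showed no call. Mki67, which encodes the Ki-67 protein that coats chromosomes of dividing cells (chr7:135689784-135716450, GRCm38.p6), had log2 values of 4.93, 5.21 and 5.38 in R47H mice, 5.41, 5.19 and 5.19 in CV mice, and 4.92, 5.19 and 5.19 in KO mice. Its groups overlapped, the mean was 5.18 ± 0.23, 5.26 ± 0.13 and 5.10 ± 0.16 (R47H, CV and KO; SD, n = 3), and the R47H minus KO difference of 0.07 had a 95% interval from -0.20 to 0.35. Top2a, the topoisomerase that untangles replicated DNA, had values of 4.77, 5.51 and 5.92 in R47H mice, 5.14, 5.27 and 5.23 in CV mice, and 4.77, 5.35 and 5.10 in KO mice. The R47H mice covered the values of all other mice, and a second Top2a probe set, also below the filter, lay at 3.99 to 4.10 in R47H mice, 3.99 to 4.49 in CV mice and 3.93 to 4.31 in KO mice. Mki67 and Top2a lay below the filter. Of the 33 members, 9 others had a mean under 5.01, the 95th percentile of 1027 olfactory receptor genes, which microglia are not known to use. Probe sets differ in affinity, so this comparison is no detection call.

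Stmn1 had the smallest p of the members, without passing. It encodes stathmin, which destabilises microtubules and is high in dividing and in neural cells. Its log2 values were 8.94, 8.95 and 9.31 in R47H mice, 8.46, 8.67 and 8.44 in CV mice, and 8.70, 8.78 and 8.56 in KO mice. Every R47H mouse lay above every other mouse. The R47H minus CV difference was 0.54 ± 0.12 (SE, limma adjusted p = 0.0966) and the R47H minus KO difference 0.39 ± 0.12 (limma adjusted p = 0.564), and neither passed the test. The second Stmn1 probe set was at 8.83, 8.71 and 9.22 in R47H mice, 8.32, 8.55 and 8.32 in CV mice, and 8.58, 8.61 and 8.44 in KO mice, the same layout. Oligodendrocyte markers were also highest in the 3 R47H mice, with 5 of 8 tested markers called higher than in CV (Mbp, Mobp, Mag, Cldn11 and Ermn), and the 7 astrocyte markers averaged 6.16 to 6.53 in R47H mice, 5.32 to 5.55 in CV mice and 5.40 to 5.90 in KO mice (Aqp4, Gfap and Gja1 below the filter). Their part in the Stmn1 difference was not tested. Hmgb2, a chromatin protein gene with 4 probe sets, lay at 8.95 to 9.20 in R47H mice, 9.03 to 9.51 in CV mice and 8.74 to 9.25 in KO mice, and its groups overlapped.

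The 6 helicase genes leaned one way in R47H by differences that did not pass. All 6 were above KO (0.04 for Mcm5 to 0.35 for Mcm6) and above CV (0.12 for Mcm4 to 0.36 for Mcm2), and in CV minus KO 5 of 6 were negative (-0.21 for Mcm2). Mcm6, whose promoter holds 3 E2F matches, had log2 values of 6.21, 6.25 and 6.63 in R47H mice, 6.18, 6.05 and 6.20 in CV mice, and 5.84, 6.12 and 6.08 in KO mice. R47H minus KO was 0.35 ± 0.11 (limma adjusted p = 0.645), and 0.23 without R47H mouse 3, the highest. Mcm3 was at 6.65, 6.78 and 6.66 in R47H mice, 6.62, 6.57 and 6.33 in CV mice, and 6.62, 6.62 and 6.50 in KO mice. The R47H mice lay above all others by a small margin, the CV and KO mice overlapped, and 3 arrays held 1 identical value. Mcm5 stood at 5.72, 6.11 and 5.93 in R47H mice, 5.84, 5.67 and 5.78 in CV mice, and 5.96, 5.84 and 5.84 in KO mice, and its groups overlapped. Mcm7 stood at 5.53, 5.80 and 5.52 in R47H mice, 5.21, 5.58 and 5.54 in CV mice, and 5.43, 5.60 and 5.55 in KO mice, and its R47H minus CV difference was 0.18 ± 0.09 (limma adjusted p = 0.478). It was 0.11 without CV mouse 1, 0.12 without R47H mouse 2 and 0.26 without R47H mouse 3. Mcm2 had the widest 95% interval of the tested members in R47H minus CV, from -0.12 to 0.84.

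**Figure D4:**
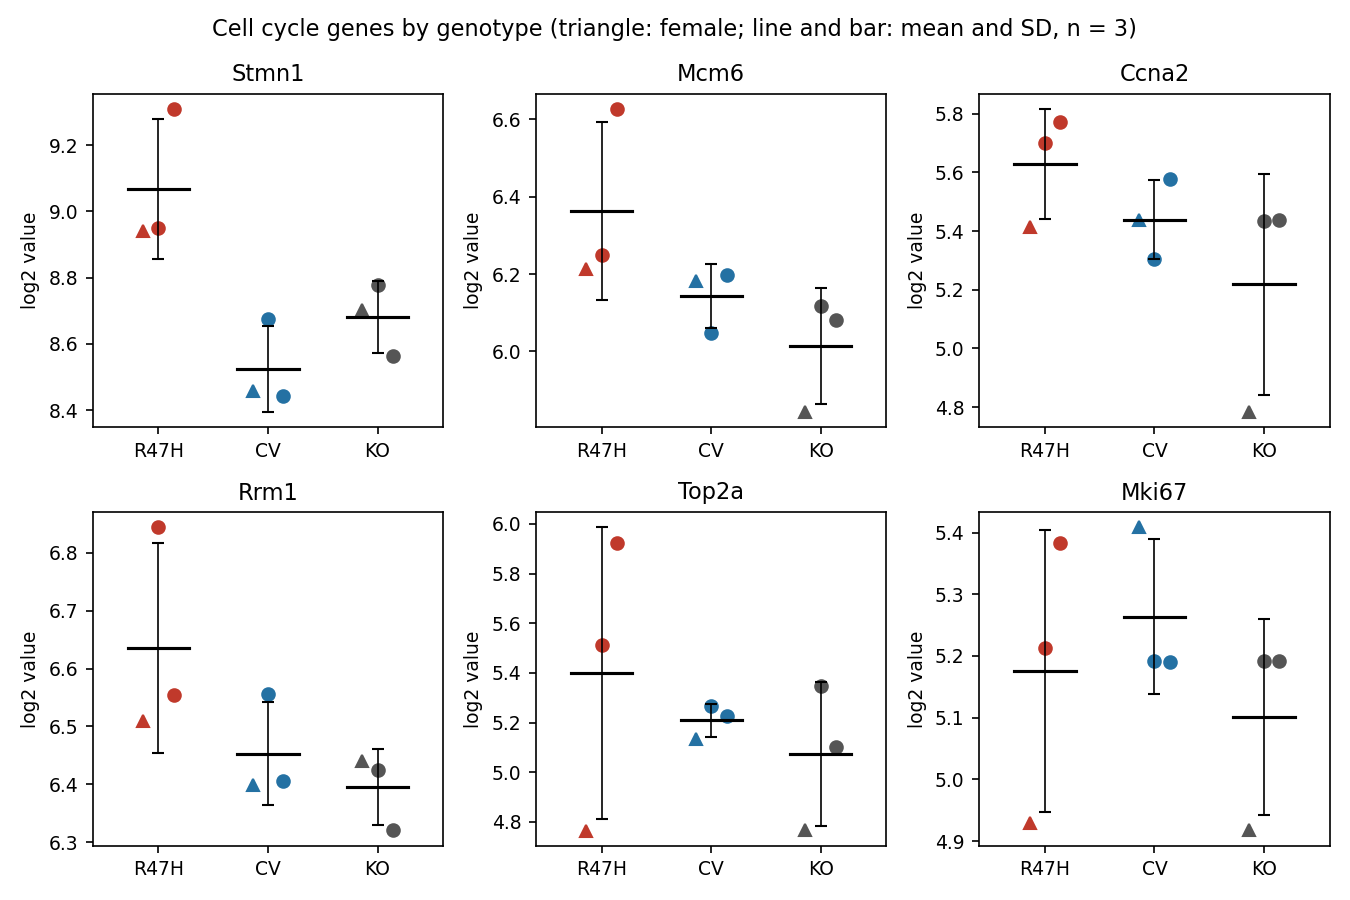
Log2 values by genotype (R47H, CV, KO) of Stmn1, Mcm6, Ccna2, Rrm1, Top2a and Mki67, 1 point per mouse, triangles for females, with the mean and SD (n = 3). The R47H points of Stmn1 lie above all others, and those of Top2a spread from 4.77 to 5.92.

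Among the clamp and nucleotide genes, Pcna, the sliding clamp, did not pass and its groups overlapped. It had log2 values of 10.11, 10.50 and 10.39 in R47H mice, 10.37, 10.44 and 10.58 in CV mice, and 10.28, 10.24 and 10.53 in KO mice, and CV minus KO was 0.12 with a 95% interval from -0.10 to 0.33. Rrm1, the large subunit of ribonucleotide reductase, was at 6.51, 6.84 and 6.55 in R47H mice, 6.40, 6.56 and 6.41 in CV mice, and 6.44, 6.43 and 6.32 in KO mice. The R47H and KO mice did not overlap, at a difference of 0.24 ± 0.10 (SE, limma adjusted p = 0.855), or 0.14 without R47H mouse 2. Rrm2, the small subunit that rises in S phase, lay below the filter, at 4.28 to 4.71 in R47H mice, 4.43 to 4.92 in CV mice and 4.04 to 4.46 in KO mice. Tyms, thymidylate synthase, ranged from 6.51 to 7.23 in R47H mice, 6.70 to 6.82 in CV mice and 6.71 to 6.83 in KO mice, so both its ends lay in R47H.

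Tk1, the thymidine kinase of S phase, gave different orders from its 2 probe sets. The one with the higher mean (10582809) read 8.07, 8.28 and 8.79 in R47H mice, 8.85, 8.74 and 9.03 in CV mice, and 8.56, 8.16 and 8.35 in KO mice. There CV lay above KO in all mice, by 0.52 ± 0.18 (SE, limma adjusted p = 0.263), and R47H minus CV was -0.49 ± 0.18 (limma adjusted p = 0.32), or -0.29 without R47H mouse 1. The other (10393431) read 6.63, 6.84 and 6.74 in R47H mice, 6.54, 6.80 and 6.70 in CV mice, and 6.45, 6.40 and 6.27 in KO mice. On that probe set R47H minus CV was 0.06 with a 95% interval from -0.16 to 0.27. R47H minus KO was 0.36 ± 0.09 there (SE, limma adjusted p = 0.637), against 0.027 ± 0.19 on the first in the same fit of single probe sets. Both placed CV above KO, and they part on where R47H stands. Probe positions were not given in the sources used here, and which of the 2 reads the Tk1 gene was not tested. Probe set numbers of the members mostly follow the order of chromosome names, and Tk1 lies on chromosome 11. The second number falls between Top2a (10390707, chromosome 11) and Rrm2 (10394978, chromosome 12). The first falls between Mcm5 (10572906, chromosome 8) and Ccnb2 (10594774, chromosome 9). The member counts and the F-test took Tk1 from the first probe set. In CV minus KO all 10 tested neutrophil markers were positive with 0 called, and with the neutrophil level as a covariate the first probe set stood at 0.49 (limma adjusted p = 0.824).

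Neither tested G1 gene passed, and their groups overlapped. Ccnd1, cyclin D1, which couples growth signals to the cycle, had log2 values of 9.27, 9.35 and 9.49 in R47H mice, 9.27, 9.32 and 9.23 in CV mice, and 9.19, 9.46 and 9.37 in KO mice. Its R47H minus KO difference of 0.03 had a 95% interval from -0.15 to 0.21. Its partner Cdk4 ranged over 8.60 to 8.93 in R47H mice, 8.71 to 8.98 in CV mice and 8.74 to 8.99 in KO mice. Ccne1, cyclin E1, below the filter, lay at 4.98 to 5.26 in R47H mice, 4.89 to 4.97 in CV mice and 4.81 to 4.97 in KO mice. For this gene the lowest R47H value stood just above the highest value of both other groups (4.982 against 4.973). The fitted mean differences were 0.17 from CV and 0.18 from KO.

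Cdkn1a encodes p21, which binds and inhibits cyclin-dependent kinases and is a target of p53. The annotation gives its probe set (10443463) to 2 symbols, Cdkn1a and 4930567H12Rik, so the signal cannot be given to either. That probe set read 10.25, 10.34 and 10.46 in R47H mice, 10.87, 11.03 and 10.85 in CV mice, and 10.25, 10.01 and 10.21 in KO mice. Every CV mouse lay above every R47H and KO mouse. It was looked at after its values were seen, in a fit of every probe set at or above the filter (17778 probe sets). CV minus KO was 0.76 ± 0.10 (SE), or 1.69-fold, and passed at limma adjusted p = 0.0305, where 0.439% of probe sets were called. The F-test of any genotype difference in that fit did not pass (limma adjusted p = 0.0578). R47H minus CV was -0.57 ± 0.10 (adjusted p = 0.111, 0.141% called), and R47H minus KO was 0.19 ± 0.10 (adjusted p = 0.987, 0.0169% called). The CV minus KO call did not last when any 1 of the 9 arrays was left out (differences of 0.67 to 0.84, adjusted p from 0.0569 to 0.146). With the neutrophil level as a covariate the difference was 0.68 (adjusted p = 0.353). The 6 monocyte markers with a probe set, 2 of them below the filter (F10 and Vcan), averaged 5.37 to 5.46 in R47H mice, 5.92 to 6.28 in CV mice and 5.36 to 5.78 in KO mice. Every CV mouse lay above every other mouse there too, and all 4 tested monocyte markers were positive in CV minus KO. Only Fn1 was called (4.61-fold, limma adjusted p = 0.000512), and it differed by far the most. S100a4, Ccr2 and Plac8 were 1.62-fold, 1.21-fold and 1.09-fold, without a call. The part of monocytes and neutrophils in the difference on this probe set was not tested beyond that covariate.

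**Figure D5:**
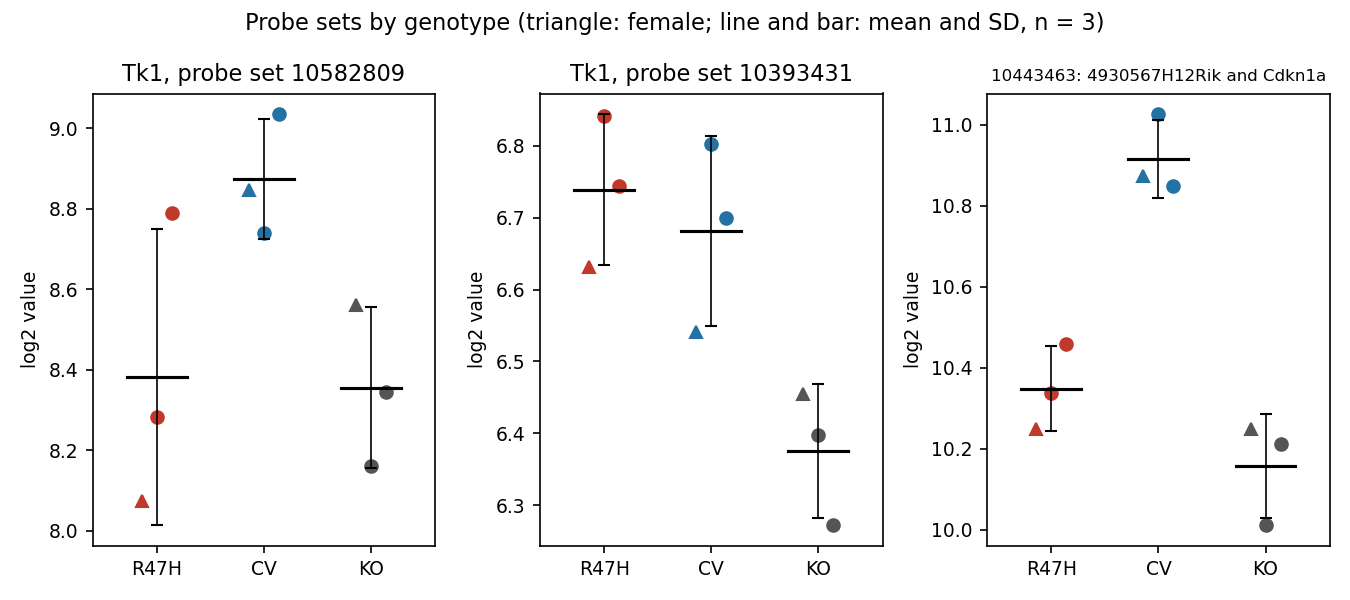
Log2 values by genotype (R47H, CV, KO) of the 2 Tk1 probe sets and of the probe set annotated to both Cdkn1a and 4930567H12Rik, 1 point per mouse, triangles for females, with the mean and SD (n = 3). The R47H points of Tk1 lie low on the first probe set and level with CV on the second, and the CV points of the shared probe set, at 10.85 to 11.03, lie above all others.

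The cyclins and kinase of S phase and mitosis gave no call. Ccna2, cyclin A2, was at 5.41, 5.70 and 5.77 in R47H mice, 5.44, 5.30 and 5.58 in CV mice, and 4.78, 5.43 and 5.44 in KO mice. KO mouse 1 was the lowest of all, and R47H minus KO was 0.41 ± 0.13 with it (limma adjusted p = 0.623) and 0.25 without it. Cdk1, the mitotic kinase, had log2 values of 5.84, 5.61 and 6.13 in R47H mice, 6.32, 6.17 and 5.83 in CV mice, and 5.84, 5.84 and 5.76 in KO mice. CV mice 1 and 2 were above all KO mice and CV mouse 3 was not (CV minus KO 0.29 ± 0.15, limma adjusted p = 0.455), and the difference was 0.19 without CV mouse 1. Ccnb2, cyclin B2, was at 5.95, 6.39 and 6.41 in R47H mice, 6.41, 6.18 and 6.18 in CV mice, and 5.83, 6.38 and 5.80 in KO mice. KO mouse 2 lay among the CV mice, and CV minus KO was 0.26 ± 0.17 (limma adjusted p = 0.574). That difference was 0.063 without CV mouse 1, and leaving out KO mouse 3 gave 0.12 and KO mouse 2 gave 0.43. With the neutrophil level as a covariate it was 0.54. Cdc20, which activates the ligase that ends mitosis, lay within 5.63 to 5.86 on all arrays.

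Among the mitotic kinases and checkpoint genes none passed. Birc5, which encodes survivin, a partner of Aurkb on chromosomes, lay at 5.41, 5.53 and 5.73 in R47H mice, 5.55, 5.40 and 5.39 in CV mice, and 5.41, 5.38 and 5.02 in KO mice. R47H minus KO was 0.29 ± 0.12 (limma adjusted p = 0.863), 0.16 without KO mouse 3, the lowest, and 0.18 without R47H mouse 3. The aurora kinases Aurka and Aurkb differed by no more than 0.14 between any 2 genotypes. Plk1, the polo kinase, was below the filter, at 4.93 to 5.74 in R47H mice, 4.65 to 5.10 in CV mice and 5.04 to 5.21 in KO mice. Its R47H minus CV difference of 0.48 had a 95% interval from 0.03 to 0.92 (limma without the filter, adjusted p = 0.5), and R47H mouse 1 lay within the CV range. The checkpoint kinase gene Bub1 and its relative Bub1b were below the filter too, with means of 3.29 and 4.76 over all arrays. Bub1b lay at 4.65 to 4.74 in CV mice and just above that, at 4.77 to 4.99, in KO mice. All CV arrays lay below all KO arrays in 6.2% of all genes. Its CV minus KO difference was -0.14 (limma without the filter, adjusted p = 0.644), and 3 arrays held 1 identical value.

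All 5 spindle and kinetochore genes lay below the filter and none was tested. Kif11, the motor that separates spindle poles, lay at 4.36 to 4.60 in R47H mice, 4.36 to 4.55 in CV mice and 4.02 to 4.36 in KO mice, and 4 arrays held 1 identical value. Cenpf lay at 4.09 to 4.70 in R47H mice, 4.61 to 4.76 in CV mice and 4.25 to 4.54 in KO mice. The spindle factor Tpx2, the motor Kif20a and the kinetochore motor Cenpe differed between genotypes by at most 0.20 in size. Identical values on 3 or more arrays occurred in 7 of 33 members (21.2%) and in 40.5% of all genes, so small differences in such probe sets rest on few distinct values.

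Most members were lower in females than in males, with no call. Of the 21 tested members 0 were called for female minus male, beside 0.0648% of all genes (limma). An unadjusted p under 0.05 was found for 3 (14.3%: Mcm7, Pcna and Ccna2), beside 11%. The difference was positive for 5 of 33 members, beside 51.3% of all genes, with a median of -0.11 beside 0.0027. Top2a, below the filter and not tested, had the most negative one, -0.51. Its 95% interval was -0.85 to -0.16 (limma without the filter, adjusted p = 0.464). It lay at 4.77, 5.14 and 4.77 in the 3 females and 5.10 to 5.92 in the 6 males. The second Top2a probe set gave -0.21, and on both the sexes overlapped. Mcm7 was at 5.53, 5.21 and 5.43 in females and 5.52 to 5.80 in males, a difference of -0.21. The helicase genes had a median of -0.023, and CV mouse 1 had 15 of 33 members above their mean, as both CV males did. The 3 females are also mouse 1 of each genotype, and all 8 oligodendrocyte markers but 1 of 10 tested neutrophil markers were positive in female minus male. Sex and anything else tied to that number cannot be told apart.

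Other genes of the cycle, from lists of replication, G1, mitosis and DREAM genes, gave no call either. Of 109 listed, 107 had a probe set and 64 were tested, and 0 were called in any genotype comparison (limma), beside 0.0834% of all tested genes in R47H minus KO, 0.797% in R47H minus CV and 1.21% in CV minus KO. In R47H minus KO 3 of 64 had an unadjusted p under 0.05, beside 5.68% of all genes, with a median difference of 0.044 beside -0.012. In R47H minus CV it was 9 of 64, beside 12.4%, with a median of 0.012 beside 0.0047. In CV minus KO it was 8 of 64, beside 13.2%, with a median of 0.014 beside -0.021. The shares at an unadjusted p under 0.05 lie near those of all genes. Positive differences numbered 69 of 107 in R47H minus KO, beside 45% of all genes. They numbered 59 in R47H minus CV, beside 52.0%, and 60 in CV minus KO, beside 41.8%. The highest differences, 1.03 in R47H minus KO and 1.02 in R47H minus CV, were in the mitosis list. They come from the fit without the filter, over all 44 genes of that list with a probe set. Only 17 of the 44 were tested, so these highest differences carry no call. No tested gene of that list had an unadjusted p under 0.05 in either comparison (limma). Gins4, a subunit of the GINS complex that joins the Mcm helicase, lay at 7.47, 7.48 and 7.27 in R47H mice, 7.13, 7.06 and 6.81 in CV mice, and 7.40, 7.57 and 7.27 in KO mice. Every CV mouse was below every other mouse, at -0.42 ± 0.11 in CV minus KO (limma adjusted p = 0.134) and 0.41 ± 0.11 in R47H minus CV (adjusted p = 0.18). Of all genes, 6.2% had all CV arrays below all KO arrays, and 6.44% had all R47H arrays above all CV arrays. Gins4 and Lig1 were picked for a small p, which favours groups that do not overlap. Lig1, the ligase that seals Okazaki fragments, lay at 6.61, 6.82 and 6.62 in R47H mice, 6.44, 6.34 and 6.36 in CV mice, and 6.43, 6.50 and 6.39 in KO mice, above both other groups in R47H (0.30 ± 0.08 over CV, limma adjusted p = 0.177).

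Mdm2, which degrades p53 and is itself a p53 target, lay at 8.06, 8.32 and 8.39 in R47H mice, 8.43, 8.48 and 8.70 in CV mice, and 8.17, 8.11 and 8.32 in KO mice. Every CV mouse was above every other mouse, at 0.33 ± 0.09 in CV minus KO (limma adjusted p = 0.161). Of all genes, 4.07% had all CV arrays above all KO arrays, and Mdm2 too was picked for a small p. Ccnd3, cyclin D3, lay at 6.81 to 7.05 in R47H mice, 6.86 to 7.11 in CV mice and 7.05 to 7.26 in KO mice, with R47H minus KO at -0.20 ± 0.07 (limma adjusted p = 0.715). Among 8 growth signal genes with a probe set, Csf2ra, a chain of the GM-CSF receptor, lay at 9.08, 8.92 and 8.92 in R47H mice, 9.12, 8.92 and 9.08 in CV mice, and 8.92, 8.64 and 8.35 in KO mice. Several arrays held 1 identical value, and the difference from KO was 0.40 ± 0.10 in CV (limma adjusted p = 0.124) and 0.33 ± 0.10 in R47H (adjusted p = 0.581), and 0 of the 6 tested passed.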

How the data were processed

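The deposited table holds 1 log2 value for each of 35556 probe sets on 9 arrays, as read from the values (1.31 to 13.9). The steps by which the authors corrected background, normalized arrays and summarised probes were not given in the sources used here. Per the labels' protocols, RNA of sorted cells was labelled from 2 ng of total RNA. The values were used as deposited. Genes were named from the platform annotation, and gene values come from probe sets of 1 symbol (21789), not from the 1621 with several. The fit of single probe sets, used for the probe set shared by Cdkn1a, took all 17778 that passed the filter, whatever their annotation.

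Genotype and sex were fitted on all 9 arrays by lmFit and eBayes of limma 3.58.1 (R 4.3.3), with 5 residual degrees of freedom. Benjamini-Hochberg adjustment ran over the 10795 genes that passed the filter. Tests were two-sided, SE and 95% intervals come from the model, and 9 arrays set the precision. The median residual SD was 0.12 for tested genes. It was 0.16 for the 33 members in a fit without the filter, 12 of them below it, so the sets are not alike. An exact permutation test of 3 mice against 3 cannot go below p = 0.1. The model was tested on simulated data first. The members and lists were chosen with earlier results of these data known, so lists are given as counts and medians without tests. Values in every mouse are given for the 5 members with the smallest p in each genotype comparison and for representatives of the roles (Mki67, Top2a, Mcm5, Pcna, Cdk1, Cdkn1a and Ccnd1). From the other lists the 3 genes with the smallest p per comparison were taken. The labels call the samples separate mice. Alternatives varied the filter, scaling, covariates, model options, replicate block and single arrays.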

Additional observations from a re-analysis of the deposited data

Results flagged for a closer look

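A signal lies outside the genes tested. The probe set that the annotation gives jointly to Cdkn1a and 4930567H12Rik was left out of the gene test, which took single-symbol probe sets. It was higher in CV than in KO mice by 0.76 on the log2 scale, with no overlap between the 3 CV mice and the 6 others. Which of both symbols it reads was not tested.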

How the results depend on the processing

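Over 19 alternatives to each comparison, 0 members were called by limma in R47H minus KO, R47H minus CV or CV minus KO. Members at an unadjusted p under 0.05 numbered 1 to 7, 1 to 5 and 0 to 3, of 6 to 33 tested, and the lowest adjusted p was 0.078. The F-test and female minus male gave 0 members as well, also without each array (0 to 0). The sign of the 15 named differences of single members held when an array of either compared genotype was left out and under quantile normalization, median centring and the neutrophil covariate; sizes that moved most stand beside the results. Most other settings cannot move these differences. Counts over all genes moved more. CV minus KO called 131 genes, 77 without sex, 23 with the neutrophil level as a covariate and 54 with the compared genotypes alone, and 54 (without CV mouse 1) to 172 (without KO mouse 3) with single arrays left out. R47H minus KO called 9, 3 without sex, 15 with trend and robust options, 15 with the neutrophil level and 1 with the compared genotypes alone, and 0 (without R47H mouse 3, with 528 genes at an unadjusted p under 0.05) to 10 (without CV mouse 2). R47H minus CV called 86, 48 with no filter, 9 with the filter at the 75th percentile and 8 with the neutrophil level, and 9 (without CV mouse 3) to 133 (without KO mouse 3). The median difference of members ran from 0.034 to 0.18 in R47H minus KO, 0.031 to 0.16 in R47H minus CV and -0.018 to 0.087 in CV minus KO with single arrays left out, where -0.018 came without CV mouse 1. The causes were not tested.

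Mouse numbers are shared between genotypes. Of 9 same-numbered pairs, 7 correlated over 0.1 in their deviations from the genotype mean (-0.04 to 0.36). Pairs of unlike number ran from -0.39 to 0.21. Mouse 1 is female in each genotype, so the pairs of mouse 1 also share sex. The main fit did not pair mice by number, and whether the numbers mark pairs was not tested. With the number as a replicate block Stmn1 in R47H minus CV stayed at 0.54 (limma adjusted p = 0.125), 0 members were called in each comparison, and the medians stayed at 0.086, 0.095 and 0.058. The shared Cdkn1a probe set had a limma adjusted p of 0.0619 with the block and 0.0806 without the filter, against 0.0305, a result chosen after seeing the data.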
